A study of Drosophila melanogaster with 6 samples.

Results

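The outer part of 2L, the left arm of the second chromosome of Drosophila melanogaster, held 302 of the 13745 peaks of an anti-tango ChIP-seq experiment on larvae. They are the peaks of 2L whose centre lies on the tip side of a limit set by position alone, in coordinates of FlyBase release 5. The same 302 peaks are obtained when the centromere-side 10% of the arm's span, from 20709839, is left out. They made up 58.8% of the 514 peaks of the arm and 15.3% of the 1980 peaks on all chromosome arms, and the other 212 peaks of 2L lay nearer the centromere. The limit fell in a stretch without peaks. The last peak inside it was 228 bp wide with a score of 13.4, at 20435879 to 20436106, and the first outside was 671 bp wide with a score of 47.4, starting at 20775835 after a gap of 339728 bp.

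The study sequenced 3 ChIP libraries, precipitated with a monoclonal antibody raised in mouse, and 3 input libraries of unprecipitated chromatin, all from wandering L3 larvae of the strain Y cn bw sp. All 6 libraries share 1 genotype, with the pigmentation markers y[1], cn[1], bw[1] and sp[1], the alleles oc[R3.2], lab[R4.2] and CG33964[R4.2], and Gr22b[1] with Gr22d[1], LysC[1] with MstProx[1], and GstD5[1] with Rh6[1]. Larvae were pooled whole and fixed with formaldehyde, so any tissue of the larva may contribute to each library. The sex of the larvae is not recorded, and the antibody is listed as crude with an unknown antigen. The series title names TCF, whereas the antibody label names tango, and the peaks are called anti-tango after that label.

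Tango is a bHLH-PAS transcription factor, the fly counterpart of mammalian ARNT. It binds DNA as a dimer with partners such as Trachealess in the airways, Single-minded at the midline of the nervous system and Spineless in the antenna and leg. TCF, also called Pangolin, is the DNA-binding factor at the end of the Wingless signalling pathway. Most of the outer part of an arm is gene-rich euchromatin, and copies of transposable elements are scattered through it. Which genes or repeats lie under the peaks was not determined, because no annotation or sequence of release 5 was used here, and for the same reason no sequence is shown.

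All libraries share 1 deposited list of the authors, in which each peak has a position, a width and a score, and no value per library. The score is the authors' own, from MACS, on a scale that is not given. It is used here only to describe and rank peaks within the list. Read depth is unknown, and neither a replicate error nor a test of ChIP against input can be given. Intervals are exact 95% intervals that cover counting error only. Neighbouring peaks are not independent, so the true uncertainty is wider. No test was run between groups of peaks, which are not replicates, and differences are given as values side by side.

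Peaks on the outer part of 2L were mostly narrow and of low score, and 2 small sets are described apart from the rest. They were 482.5 bp wide at the median (quartiles 317 and 809 bp, full range 201 to 21471 bp) with a median score of 18.8 (quartiles 13.1 and 36.2, full range 6.37 to 1509). Of the 302 peaks, 157 were under 500 bp wide and 16 were at least 4 kb wide. These 16 are called broad, by a width limit chosen with earlier results of these data known. No peak was between 3299 and 5009 bp wide. A score of 100 or more was reached by 28 peaks, of which 22 were at most 1 kb wide and are called narrow strong peaks. The strongest narrow peak left out by the score limit scored 90.5 and the weakest inside it scored 100.5. The score limit was chosen with earlier results known and marks no wide gap in the scores. The remaining 264 peaks had a median score of 16.7 and a median width of 417 bp. In all, the peaks covered 330 kb, or 1.60% of the length of the outer arm. Broad peaks held 46.4% of the covered bases and narrow strong peaks 3.83%.

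**Figure D1:**
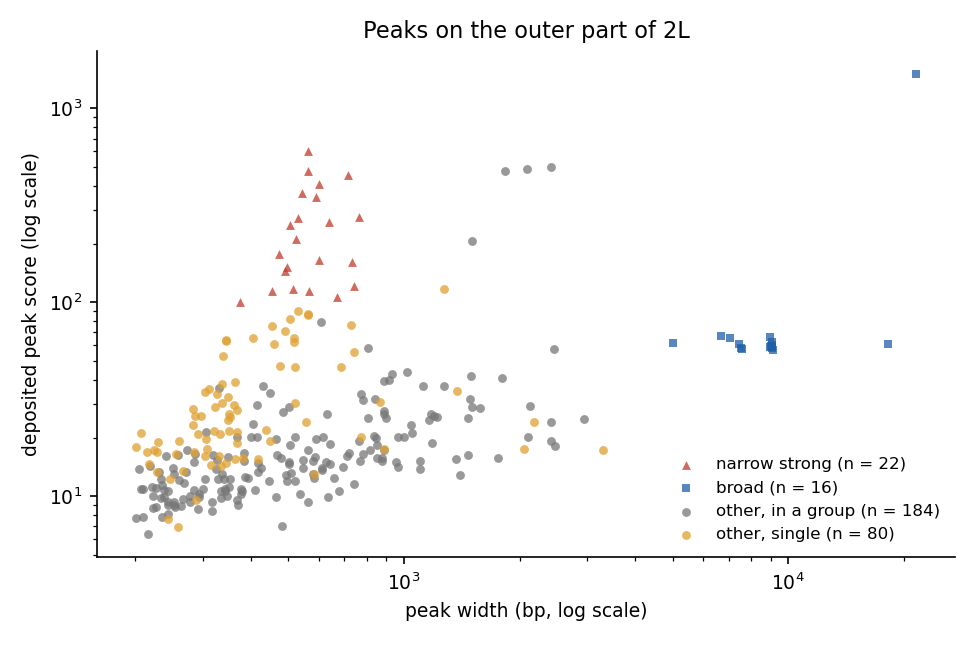
Width (bp) against deposited score of the 302 peaks, both on log axes; red triangles are the 22 narrow strong peaks, blue squares the 16 broad peaks, and circles the other peaks, grey in groups (184) and yellow single (80). All but 1 of the broad peaks lie between scores 56.7 and 67.0, and single peaks of 500 to 800 bp lie above most grouped peaks of the same width.

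The gaps between neighbouring peaks fell into 2 size ranges with few in between. Of 301 gaps, measured from the end of a peak to the start of the next, 140 (46.5%) were at most 5 kb, 17 were between 5 and 20 kb, and 144 were longer than 20 kb. The short gaps had a median of 269 bp and 91 of them were at most 400 bp, whereas the gaps over 5 kb had a median of 90.4 kb. Peaks joined by gaps of at most 5 kb are called a group, and a group or a lone peak is called a region. By this limit 193 peaks (63.9%, 58.2 to 69.3%) lay in 53 groups and 109 stood alone, which gives 162 regions. When peaks with a gap of at most 400 bp were first merged into 211, the grouped share was 37.9%.

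**Figure D2:**
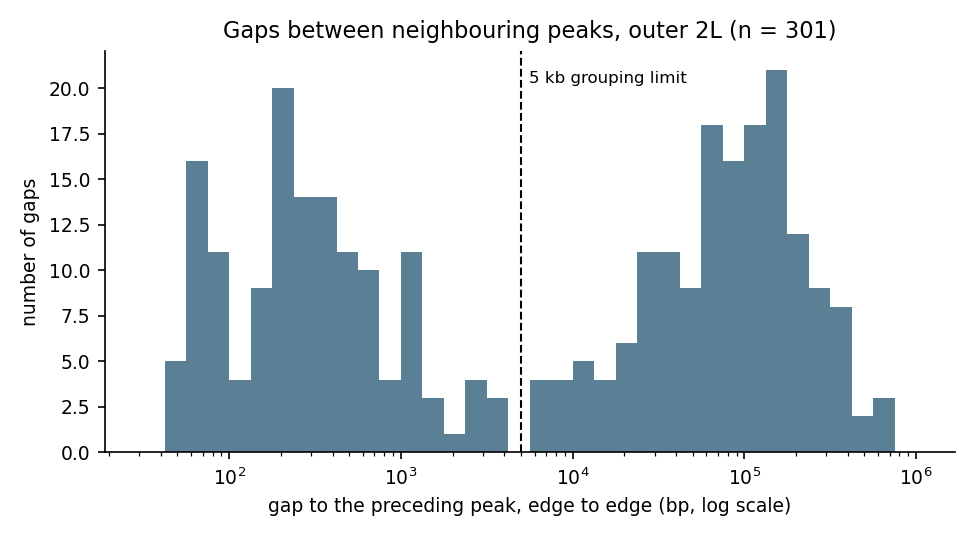
Number of gaps by length (bp, log axis) for the 301 gaps between neighbouring peaks; the dashed line marks 5 kb. The gaps pile up on either side of the line, with medians of 269 bp below it and 90.4 kb above it.

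Along the arm the number of peaks per 1 Mb ranged from 5 to 29, with a median of 13.5 over the 20 full bins. The fullest was 19 to 20 Mb with 29 peaks, followed by 8 to 9 Mb with 26, 12 to 13 Mb with 23 and 2 to 3 Mb with 21. The emptiest were 4 to 5 Mb with 5 peaks, 5 to 6 Mb with 6 and 9 to 10 Mb with 8. The part bin from 20 Mb to the limit held 13 peaks. Most peaks of the fullest bins lay in groups. Of the 29 peaks at 19 to 20 Mb, 22 lay in groups, as did 19 of 26 at 8 to 9 Mb, 19 of 23 at 12 to 13 Mb and 18 of 21 at 2 to 3 Mb. Over the whole outer arm, 193 of 302 peaks lay in groups. The bin at 19 to 20 Mb also had the most regions of any bin, 13, and 7 single peaks, against bin medians of 8 and 5. At 8 to 9 Mb there were 10 regions and 7 single peaks.

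Regions were spread more evenly than peaks, in part by construction, since joining neighbouring peaks removes clumping over short distances. Each full bin held 3 to 13 regions, with a median of 8, and the variance of the counts was 0.86 times their mean, against 2.82 times for peaks. At 10 to 11 Mb, for example, 11 peaks made up only 3 regions, while at 1 to 2 Mb another 11 peaks made up 10 regions. The bins with most peaks did not have the highest median scores, although the bin at 8 to 9 Mb held a peak that scored 474. The median score was 17.3 at 19 to 20 Mb and 15.5 at 8 to 9 Mb, against 145 at 4 to 5 Mb, the bin with fewest peaks, and 118 at 6 to 7 Mb with 9 peaks. The lowest bin median was 9.90, at 10 to 11 Mb.

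**Figure D3:**
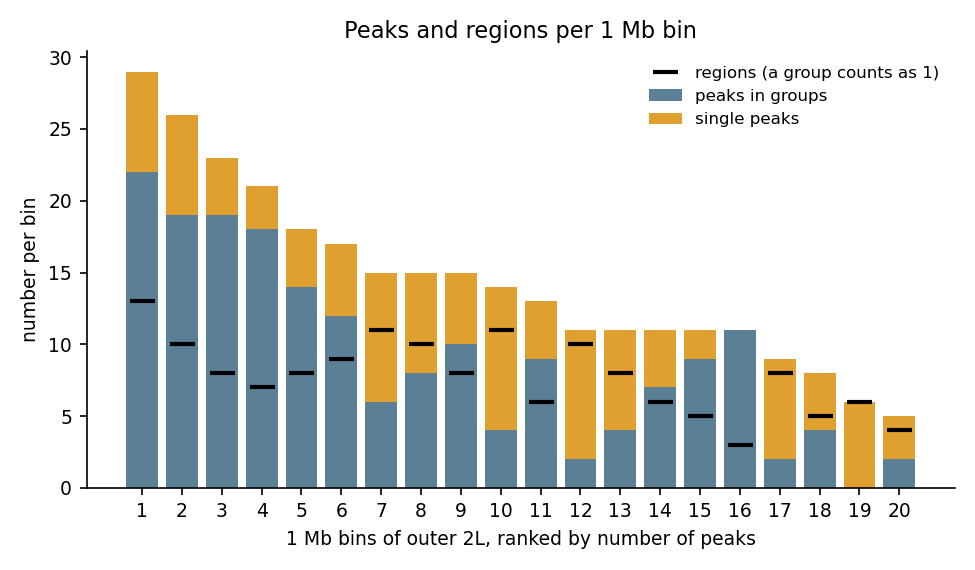
Peaks per 1 Mb in the 20 full bins, ranked by number of peaks, with grouped peaks in blue and single peaks in yellow; black marks give the number of regions. Peaks range from 5 to 29 per bin and regions from 3 to 13.

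In steps of 6.9 Mb from the tip, 75, 103 and 124 peaks were found, or 10.9 per Mb (8.55 to 13.6), 14.9 per Mb (12.2 to 18.1) and 17.97 per Mb (14.9 to 21.4). The intervals of the first and last step do not overlap, but they cover counting error only and neighbouring peaks are not independent. No conclusion on a gradient is drawn from them. The regions numbered 49, 46 and 67 in the same order, with no rise from the first to the second step. Of the peaks, 49.3%, 70.9% and 66.9% lay in groups. Covered length was 103, 91.2 and 136 kb, of which the single widest peak accounts for 21.5 kb in the last step. The 3 longest stretches without a peak were 658 kb at 12074351 to 12732519, 636 kb at 9957433 to 10593145 and 584 kb at 4333855 to 4918290. At the tip itself stood a group of 4 weak peaks at 676 to 3185, with scores of 10.9 to 13.1, and 306 kb without a peak followed it.

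Single peaks scored higher than grouped ones. The median score was 32.65 for the 109 single peaks (interquartile range 19.0 to 66.0), 16.9 for the 44 peaks in pairs and 15.0 for the 149 peaks in groups of 3 or more (11.0 to 20.4). The difference was also seen between peaks of like width. Among peaks of 500 to 800 bp, the 28 single peaks had a median score of 98.7 (60.7 to 221) and the 40 grouped ones 15.3 (13.5 to 19.9). Among peaks of 300 to 500 bp, 42 single peaks had a median of 28.5 (19.5 to 51.6) and 50 grouped ones 12.7 (10.8 to 16.7). Among peaks of 200 to 300 bp, 21 single peaks had a median of 17.0 (13.6 to 20.9) and 44 grouped ones 10.4 (9.01 to 12.5). The quartile ranges did not overlap in these 3 width classes. They did overlap among peaks of 800 to 1500 bp, where 4 single peaks had a median of 32.8 (27.4 to 55.7) and 39 grouped ones 23.3 (16.8 to 29.6). Over the 302 peaks, width and score had a Spearman's rho of 0.54, a Pearson's r of 0.42 and an r of 0.44 on log scales. The 109 single peaks had a rho of 0.60, an r of -0.01 and an r of 0.31 on log scales. The 193 grouped peaks, which include the widest and highest-scoring peak, had a rho of 0.71, an r of 0.73 and an r of 0.62 on log scales. Among the 16 broad peaks rho was -0.11. Width and score come from the same peak calling, so these are descriptions across peaks and not relations between separate measurements.

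The 53 groups comprised 22 pairs and 31 groups of 3 or more peaks, up to 9. They spanned 632 bp to 23.0 kb, with a median of 3254 bp. In 30 of the 31 larger groups no peak scored 60 or more, and the median of their highest scores was 26.6. Peaks covered 45.5 to 96.0% of the span of a larger group, with a median of 69.9%. Groups of 4 peaks were the most frequent size after pairs, with 12 groups, followed by 7 groups of 3 and 5 groups of 6.

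The group with most peaks had 9 peaks at 8594568 to 8601499, a span of 6932 bp with scores of 9.32 to 37.1. Next came 8 peaks at 8014727 to 8023383, a span of 8657 bp with scores of 9.88 to 28.5. Both lie in the bin at 8 to 9 Mb and together give 17 of its 26 peaks. There were 4 groups of 7 peaks. The one at 2565609 to 2571562 spanned 5954 bp and scored 8.09 to 33.8, and the one at 12732520 to 12743580 spanned 11061 bp and scored 13.9 to 24.3. The group at 19665308 to 19674017 spanned 8710 bp, was 77.7% covered and scored 6.37 to 58.2.

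The last group of 7 was unlike the rest in that it mixed strong and weak peaks. It ran from 7973762 to 7984012. Its first peak was 496 bp wide with a score of 153, and after a gap of 2251 bp came a peak of 1504 bp with a score of 206. The next 4 peaks scored 7.04 to 10.8, and the last, 934 bp wide, scored 42.6.

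A span of 6.9 to 7.0 kb recurred among the groups. This range was picked after the spans had been seen, so the values that follow are a description. As many as 6 of the 53 groups had it, with spans of 6913, 6928, 6932, 6935, 6941 and 6957 bp, all within 44 bp of each other. The nearest other spans were 6424 bp below and 8657 bp above. These groups began at 8.59, 10.9, 12.1, 15.6, 16.2 and 19.1 Mb, so they were neither adjacent nor at the tip. They held 4 to 9 peaks each, 36 in all, which covered 48.6 to 59.6% of the span.

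The 6 groups of this span also shared an order of scores that was not used to pick them. In each of the 6, the first and the last peak had the 2 highest scores. At 8594568 to 8601499 the end peaks scored 20.1 and 37.1 and the 7 peaks between them at most 16.1. At 10876611 to 10883567 the ends scored 43.7 and 18.9 and the inner peaks at most 14.1. At 12067423 to 12074350 the ends scored 20.6 and 36.9 and the inner peaks at most 12.4.

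At 15586497 to 15593431 the end peaks scored 40.7 and 36.4 and the inner ones at most 17.3. At 16153839 to 16160779 they scored 37.0 and 31.6, with inner peaks at most 15.2, and at 19147450 to 19154362 they scored 20.1 and 26.6, with inner peaks at most 16.6. The higher end was the low-coordinate one in 3 groups and the high-coordinate one in 3. Among the other 25 groups of 3 or more peaks on the outer part of 2L, the ends were the 2 highest in 1.

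End peaks varied in width, between 431 and 1800 bp at the higher-scoring end and between 331 and 1187 bp at the other. With each group laid out from its higher-scoring end, 7 stretches lay under a peak in all 6 groups. These were positions 1 to 431, 528 to 632 and 704 to 868 bp near that end, 4335 to 4522 and 4606 to 4693 bp further in, and 6159 to 6431 and 6605 to 6913 bp near the other end. The first and the last of the 7 stretches were fixed by the layout. Each group begins and ends with a peak, and these groups were picked for their like spans. In most of the groups the stretches at 528 to 632, 704 to 868 and 6159 to 6431 bp lay within an end peak. These stretches therefore follow largely from the layout too. Only the stretches at 4335 to 4522 and 4606 to 4693 bp lay under inner peaks in all 6 groups. Positions 2011 to 2012, 3369 to 3487 and 3742 to 3969 bp lay under a peak in none. Over the 15 possible couples of groups, the bases under peaks in both, end peaks included, were 36.8 to 66.3% of those under a peak in either (median 49.2%). With 1 of the couple turned round, the share was 33.0 to 66.9% (median 51.6%), and the first of these shares was the larger in 6 of the 15 couples.

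**Figure D4:**
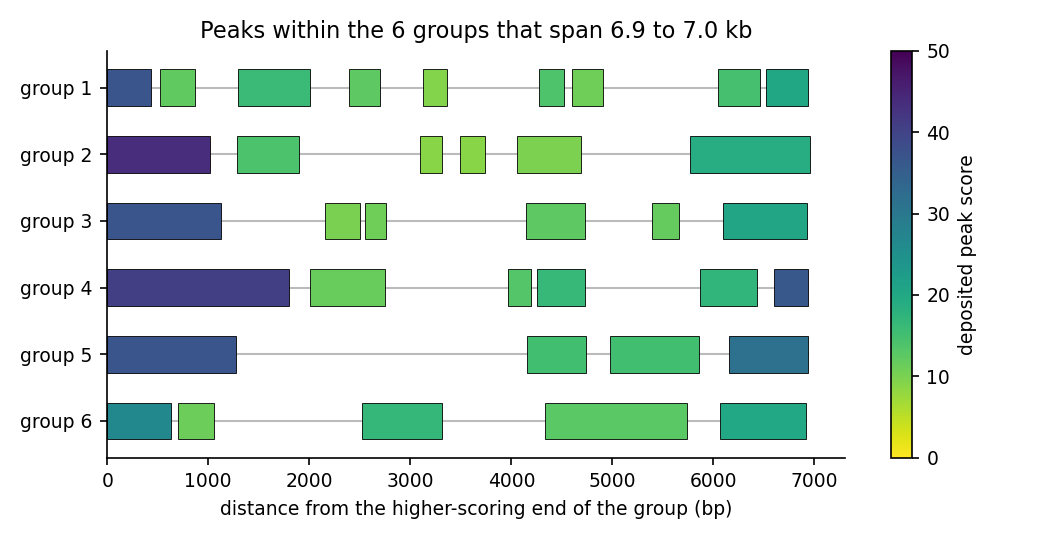
Peaks (boxes, coloured by deposited score from 0 to 50) within the 6 groups that span 6.9 to 7.0 kb, drawn by distance in bp from the higher-scoring end, with groups numbered from the tip of the arm. The end boxes are the darkest of each row, and inner scores do not exceed 17.3.

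Strong peaks also occurred as pairs of a wide and a narrow peak. On the outer part of 2L, 3 pairs had both scores above 100. At 4181224 to 4184013 a peak of 2096 bp scored 486 and its neighbour of 544 bp, 150 bp away, scored 367. At 6363100 to 6366168 the narrow peak came first, with 591 bp and a score of 350, and 69 bp further on a peak of 2409 bp scored 498. At 7548041 to 7550626 a peak of 1837 bp scored 476 and its neighbour of 602 bp, 147 bp away, scored 408. The 3 pairs thus spanned 2790, 3069 and 2586 bp and gave 6 of the 10 highest scores of the outer arm.

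The highest score belonged to the widest peak. It ran from 20176665 to 20198135, 21471 bp, with a score of 1509, the third highest of the whole list. Its neighbour 1232 bp away was 335 bp wide and scored 10.7. The other 3 of the 10 highest scores were single narrow peaks. The second highest of the outer arm was at 480792 to 481353, 562 bp wide, and scored 600.01. The sixth, at 8205004 to 8205565, was also 562 bp wide and scored 474, and the seventh, at 6918651 to 6919365, was 715 bp wide and scored 456.

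The 22 narrow strong peaks were 375 to 764 bp wide, with a median of 562 bp, and their median score was 195. Of these, 18 were single peaks, 3 were the narrow members of the strong pairs above and 1 belonged to the mixed group of 7. The closest 2 had centres 10.3 kb apart, at 470525 to 470979 (score 114) and 480792 to 481353. For 15 of the 22, no other peak of any score lay within 20 kb. The nearest other peak was then 23.9 to 458 kb away, with a median of 79.6 kb. Such isolation was not particular to narrow strong peaks. It was also seen for 9 of the 16 broad peaks, 109 of all 302 peaks were single, and 144 of all 301 gaps were longer than 20 kb.

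The strongest of the isolated narrow strong peaks were the 2 at 8.2 and 6.9 Mb already given, whose nearest neighbours were 101.4 and 48.7 kb away. They were followed by 14370098 to 14370861 (score 276, nearest peak 23.9 kb), 1119205 to 1119735 (274, 25.3 kb) and 9956794 to 9957432 (259, 458 kb). The last of these was the most isolated, with no peak for 458 kb on the side of the tip and 636 kb on the other. Next were 6065896 to 6066401 (250.03, 93.5 kb), 19490058 to 19490582 (211, 82.1 kb), 3888902 to 3889502 (165, 109 kb), 7048553 to 7049283 (161, 79.8 kb) and 4333365 to 4333854 (145, 149 kb). Their widths lay between 490 and 764 bp.

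Most narrow strong peaks lay in the tip-side 50% of the outer arm. In the steps of 6.9 Mb from the tip they numbered 9, 9 and 4, so they were fewest in the last step. The outer arm from the tip to 10.35 Mb, 50% of its length, held 18 of the 22 (81.8%, 59.7 to 94.8%) and 106 of the other 280 peaks (37.9%, 32.2 to 43.8%). Between 14370861 and 19490058, over 5.12 Mb, there was no narrow strong peak, although 90 peaks lay there, with scores up to 90.5. The division at 10.35 Mb was made after the positions had been seen. By the same division, the tip-side 50% held 10 of 25 narrow strong peaks (40%, 21.1 to 61.3%) on the outer part of 3L, 11 of 26 (42.3%, 23.4 to 63.1%) on that of 3R and 15 of 26 (57.7%, 36.9 to 76.6%) on that of X. The interval of 2L overlaps those of the others, and the difference was not tested.

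Broad peaks were alike in score and fell into a few widths. Of the 16, 15 scored between 56.7 and 67.0, and the exception was the peak of 21471 bp. Between scores of 50 and 70 lay 25 peaks in all, of which 15 were broad and 9 were among the 248 peaks of at most 1 kb. As many as 8 broad peaks were 8972 to 9145 bp wide (median 9069.5 bp), and these scored 56.7 to 66.5. In order from the tip they started at 686969 (8979 bp), 996778 (9010 bp), 2100447 (9071 bp), 5827768 (8972 bp), 13853152 (9068 bp), 14642580 (9145 bp), 18051944 (9082 bp) and 19703602 (9083 bp). A further peak, at 6426933 to 6445101, was 18169 bp wide, 2.00 times that median, and scored 61.0.

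Among the remaining broad peaks, 3 were 7466 to 7577 bp wide, starting at 976948, 8452455 and 9000340, with scores of 57.4 to 61.0. The others were 5009 bp (19652632, score 61.5), 6679 bp (10946964, score 67.0) and 7062 bp (7343371, score 65.5) wide. The peak at 8452455 was followed after 56 bp by a peak of 1495 bp that scored 41.8, and this pair spanned 9128 bp. The peak at 10946964 was followed after 67 bp by a peak of 2458 bp that scored 57.7, and this pair spanned 9204 bp. Both spans lie close to the most frequent width of the broad peaks. In all, 11 of the 16 were single and none lay in a group of 3 or more. They stood in 14 of the 21 bins. Without the widest peak, broad peaks held 42.7% of the covered bases.

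In density the outer part of 2L was set beside those of 3L, 3R and X, taken as the arms without the 10% of their span nearest the centromere. It had 14.6 peaks per Mb (12.991 to 16.3), against 13.2 per Mb (11.7 to 14.8) on 3L, 11.6 (10.3 to 12.984) on 3R and 14.4 (12.7 to 16.1) on X, so that only the interval of 3R lay wholly below that of 2L. The density was 1.13 times that of the other 3 together (0.99 to 1.29). By regions it was 7.83 per Mb (6.67 to 9.13), against 7.38 (6.29 to 8.60) on 3L, 6.904 (5.91 to 8.01) on 3R and 8.64 (7.41 to 10.0) on X, where all 4 intervals overlap, and the ratio was 1.03 (0.86 to 1.23). Centromere-proximal 2L, by contrast, had 91.7 peaks per Mb (79.8 to 105).

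For the classes of peaks the intervals of the 4 outer arms overlap. Narrow strong peaks numbered 1.06 per Mb (0.67 to 1.61) on the outer part of 2L, against 1.13 on 3L, 1.04 on 3R and 1.29 on X. Broad peaks numbered 0.77 per Mb (0.44 to 1.26), against 1.04 on 3L, 0.80 on 3R and 1.09 on X. The share of peaks in groups was 63.9% (58.2 to 69.3%), against 60.3% (54.4 to 65.9%) on 3L, 56.6% (50.6 to 62.3%) on 3R and 56.4% (50.5 to 62.2%) on X. The median score was 18.8 (16.8 to 20.4), against 20.4 on 3L (18.2 to 23.5), 20.96 on 3R (18.3 to 26.1) and 24.9 on X (21.4 to 28.9), and of these only the interval of X lies wholly above that of 2L.

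**Figure D5:**
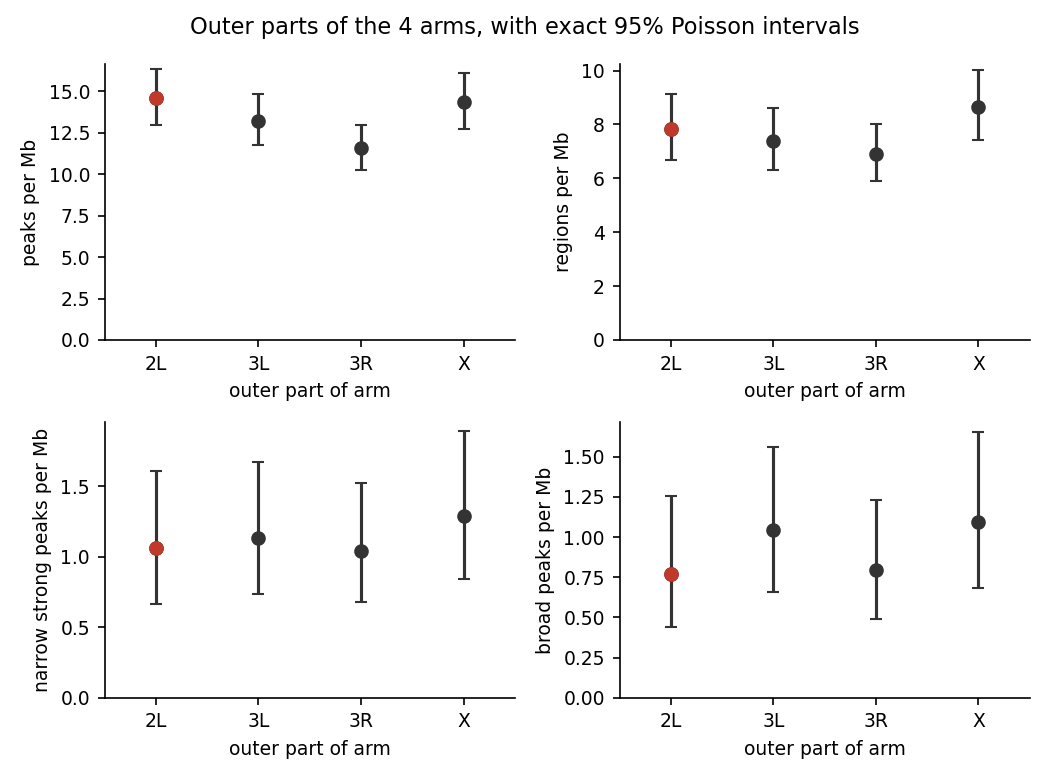
Peaks, regions, narrow strong peaks and broad peaks per Mb on the outer parts of 2L (red), 3L, 3R and X, with exact 95% Poisson intervals for counting error. The interval of 2L overlaps that of each other arm, except for peaks, where it starts at 12.991 per Mb on 2L and ends at 12.984 on 3R.

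The forms seen on 2L also occurred on the other arms. Groups spanning 6.9 to 7.0 kb numbered 6 of 53 on the outer part of 2L, against 2 of 47 on 3L, 1 of 47 on 3R and 2 of 48 on X. In all 5 on the other arms the ends were again the 2 highest-scoring peaks, as they were in 7 of 25 other groups of 3 or more on 3L, 9 of 27 on 3R and 9 of 23 on X. Peaks of 8.9 to 9.2 kb numbered 8 on 2L, against 15 on 3L, 13 on 3R and 6 on X. The median score of broad peaks was 60.6 on 2L, against 58.15 on 3L, 58.3 on 3R and 58.4 on X. The median score of the whole list was 57.7. Single peaks scored above grouped ones on each arm, with medians of 32.65 and 15.3 on 2L, 50.4 and 15.3 on 3L, 52.1 and 15.6 on 3R and 34.6 and 20.4 on X.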

How the data were processed

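ChIP (3) and input (3) libraries from whole larvae were sequenced. Per the file headers, the deposited list holds MACS peaks on FlyBase release 5, with a score per peak as deposited by the authors. Per the submitters' processing notes, the build was BDGP5 and the tools included MACS2, BWA and CASAVA (1.7.0.2, 1.7.0.3), with no role or order. The combining of replicates, the treatment of reads with several mapping places and the peak threshold are not given in the sources here. Read depth is unknown. Other deposited values are positions, given as first and last base.

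Widths, gaps, groups, bins and exact intervals were computed with scipy 1.17.1, pandas 2.3.3 and numpy 2.4.6 under Python 3.11.15, and the grouping and intervals were tested on simulated data. Members, limits and lists were chosen with earlier results of these data known. Peaks named are the 10 highest scores, those of at least 9 kb, the 5 groups with most peaks (6 with ties), the 10 strongest isolated narrow peaks and the 3 longest gaps. The other broad peaks, the recurrent-span groups, the strong pairs and the extreme bins were named after their values had been seen. Coordinates run towards the centromere on 2L, 3L and X and away from it on 3R, and lengths run from the first peak. Promoters and motifs were not analysed here.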

Additional observations from a re-analysis of the deposited data

How the results depend on the processing

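No paired analysis was possible because peaks carry no value for any single library, and for the same reason no replicate could be left out. The density of 14.6 peaks per Mb was 10.2 after merging within 400 bp, 7.44 after merging within 10 kb and 6.76 for the 140 peaks that reached the arms' median score, each of which leaves fewer peaks by construction. The fullest bin held 11 regions after merging within 10 kb. The grouped share was 37.9% after merging within 400 bp and 30.7% for those 140 peaks. Narrow strong peaks numbered 39 with a score limit of 50. The median score was 32.65 without grouped peaks, and the median width 562 bp after merging within 400 bp. The density ratio to the other 3 outer arms was 0.97 for peaks that reached the arms' median score, an alternative added after seeing the data. Groups of 6.9 to 7.0 kb numbered 0 with a gap limit of 1 kb, since each holds an inner gap of 1135 to 2880 bp, and 6, 5 and 4 with limits of 3, 10 and 20 kb, which were added too. The number of groups changed little, from 53 to 58 and 55 with gap limits of 1 and 10 kb. Broad peaks numbered 17 and 16 with width limits of 3 and 5 kb. Their share of covered bases was 42.7 to 47.4% in the settings tried. Without values per library, no peak can be tied to ChIP over input, and depth limits every count to an unknown degree.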
